A study of Rattus norvegicus with 12 samples.

Results

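The 28 genes described here are enzymes of cholesterol and fatty acid synthesis together with sterol regulators of the SREBP pathway, followed through 3 zones of cartilage from the proximal tibia of 10-day-old rats. They were chosen by symbol, as 16 enzymes of sterol synthesis, 8 enzymes that make or modify fatty acids, and Srebf1, Srebf2, Insig1 and Stard4. Of these 28 genes, 23 had a transcript cluster (the set of array probes that reports 1 transcript) annotated with that gene alone, out of 14300 genes with such a cluster on the array. Srebf1 shared its only cluster with Pemt, so no value is given for it. Hmgcs1, Mvk, Fdps and Fasn had no cluster with that symbol in the annotation used here. The measured set therefore holds 13 of the 16 sterol enzymes and 7 of the 8 fatty acid enzymes.

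Cells build cholesterol from acetyl-CoA through the mevalonate pathway: acetyl-CoA is condensed and phosphorylated to isoprenoid units, these are joined to squalene, squalene is closed to lanosterol, and lanosterol is trimmed and reduced to cholesterol. The transcription factor SREBP-2, the product of Srebf2, drives these enzymes when membrane sterols are low, whereas SREBP-1c, from Srebf1, mainly drives fatty acid synthesis. Insig1 is itself an SREBP target and holds the SREBP precursors in the endoplasmic reticulum when sterols are plentiful. In cartilage, sterol synthesis matters to growth, since cholesterol modifies and is needed to relay hedgehog signals, and inherited defects of late enzymes such as DHCR7, NSDHL and SC5D disturb the human skeleton.

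Articular cartilage gave a superficial zone (SZ) and an intermediate/deep zone (IDZ), and growth plate cartilage gave a resting zone (RZ), all dissected by hand from Sprague-Dawley rats, with 4 arrays per zone and 12 in all. Each IDZ or RZ sample pooled tissue of 2 animals, and IDZ and RZ samples that bear 1 number share their animals. Each SZ sample came from 1 animal, and these animals were 4 of the 8 that also gave IDZ and RZ tissue. Replicates were separate RNA samples, and pooling makes their spread a spread of pairs in IDZ and RZ and of single animals in SZ. The model shared 1 estimate of spread per cluster over all zones, so p-values of IDZ against RZ also carry the spread within SZ. No genotype or agent differed between zones.

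Chondrocyte markers were bright in every zone. The mean log2 level of 5 of 6 such markers (Col2a1, Acan, Col9a1, Hapln1 and Matn1) was 12.13 to 12.41 on the SZ arrays. It was 13.04 to 13.13 on IDZ and 12.94 to 13.09 on RZ. Sox9 had no cluster of its own. In SZ, 4 of the 5 were lower than in IDZ and 4 of the 5 lower than in RZ. The median differences of the 5 were -0.84 and -0.90. Prg4, which encodes the joint lubricant lubricin and marks the surface layer, had zone means of 12.78 in SZ, 10.31 in IDZ and 5.68 in RZ. Markers of other cell types moved with the superficial zone. All 10 macrophage markers were higher in SZ than in either other zone, with a mean of 8.38 to 9.03 on SZ arrays against 6.65 to 6.93 on IDZ and 6.51 to 7.01 on RZ, Tyrobp being the brightest. All 4 measured endothelial markers of a list of 6 were higher, with 8.92 to 9.57 against 6.45 to 6.93 and 6.22 to 6.56, Emcn being the brightest. Of 9 adipocyte markers 6 were higher, with 6.78 to 7.38 against 6.35 to 6.44 and 6.14 to 6.29. None of these markers was at 0, since log2 array values have no true zero. Their part in the differences below was not tested, and in bulk tissue fewer cells of a type and less RNA per cell cannot be told apart. Of the 4 osteoblast markers, Sp7 was lower in SZ than in IDZ by 0.58 and than in RZ by 0.94, and Ibsp was lower in IDZ than in RZ by 1.55. All 4 were negative in SZ minus RZ and in IDZ minus RZ, and 3 were positive in SZ minus IDZ. Limma called 0 of 4 measured erythroid markers in each comparison, as it did at an unadjusted p under 0.05. All 4 were negative in IDZ minus RZ and in SZ minus RZ, with medians of -0.87 and -0.43, and 3 were positive in SZ minus IDZ. Their mean spread widely between arrays, from 6.526 to 8.827 on SZ, 7.042 to 8.354 on IDZ and 7.078 to 9.305 on RZ.

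SZ replicate 4 stood apart from the other arrays. Its values had the narrowest interquartile range, 2.24 log2 units against 2.50 to 2.91. Its correlation with the mean of the other arrays of its zone was 0.975, against 0.991 to 0.997 for the other arrays. Its upper quartile was 7.96 against 8.21 to 8.31 on the other SZ arrays, and its lower quartile 5.72 against 5.40 to 5.49. SZ replicate 4 was the lowest SZ array for 20 of the 23 genes, and for 50.2% of all genes. The 23 genes had mean levels at percentiles 49.6 to 98.3 of all genes, so these shares are not of genes of like level. Counts of lower genes among the 23 are given without SZ replicate 4 as well, as are genes of the 23 whose call or sign changed. Most other values include it.

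Most of the 23 genes were lower in the superficial zone than in each of the other zones, and more of them against the growth plate resting zone. Differences are in log2 units, so that -1 is a halving of the signal, and a gene was called at a Benjamini-Hochberg adjusted p under 0.05 from limma, adjusted over all 27342 clusters. In SZ against RZ, 20 of the 23 genes were lower, where 12.2% of all genes were lower, and 10 were lower by at least 2-fold, where 1.75% of all genes were. On 18 of the 23, each SZ array lay below each RZ array, as it did for 13.5% of all genes. None of the 23 was called higher, against 14.5% of all genes, and 1 (Pmvk) was higher at an unadjusted p under 0.05. The median difference of the 23 was -0.92, against -0.01 over all genes. Without SZ replicate 4, 19 were called lower.

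In SZ against IDZ, 13 of the 23 genes were lower, where 9.56% of all genes were lower, and for 12 of the 23 all SZ arrays lay below all IDZ arrays, as for 10.6% of all genes. Me1 alone fell by at least 2-fold, as did 1.01% of all genes. The count of higher genes was 0 by limma and by plain one-way contrasts, where limma called 17.0% of all genes higher, and Pmvk was again the 1 gene higher at an unadjusted p under 0.05. The median difference was -0.45, against -0.03 over all genes, and without SZ replicate 4 the count of lower genes was again 13.

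Between the deeper articular zone and the resting zone fewer of these genes were called. In IDZ against RZ, 9 of the 23 were lower, where 5.58% of all genes were lower: Acat2, Fdft1, Lss, Nsdhl, Sc5d, Dhcr7, Insig1, Acly and Scd. On 17 of the 23 all IDZ arrays lay below all RZ arrays, as for 15.6% of all genes. The median difference was -0.29, against 0.01 over all genes. For the 13 sterol enzymes alone it was -0.53, with all 13 negative and 11 lower on all arrays, beside -0.45, 12 and 7 in SZ against IDZ. None of the 23 was called higher by limma or by plain one-way contrasts, against 3.22% of all genes by limma, with 1 (Elovl6) higher at an unadjusted p under 0.05. With the pair of animals as a replicate block, fitted on the IDZ and RZ arrays only, 12 were lower and 1 was higher. Idi1, Msmo1 and Hsd17b7 joined the lower genes, and Elovl6 was the higher one. The arrays of these 2 zones without a block also called Idi1, Msmo1, Hsd17b7 and Elovl6 in these directions. They called Sqle lower as well, at an adjusted p of 0.0403 from limma, in a fit that leaves out the spread within SZ. The count of 9 lower genes also turned on single arrays. It was 5 without IDZ replicate 1, 4 without IDZ replicate 2, IDZ replicate 3, RZ replicate 1 or RZ replicate 2, 6 without RZ replicate 4 and 11 without SZ replicate 4, where Idi1 and Msmo1 joined the lower genes and Elovl6 was called higher. Acat2, Fdft1, Dhcr7 and Acly were called whichever array was left out.

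**Figure D1:**
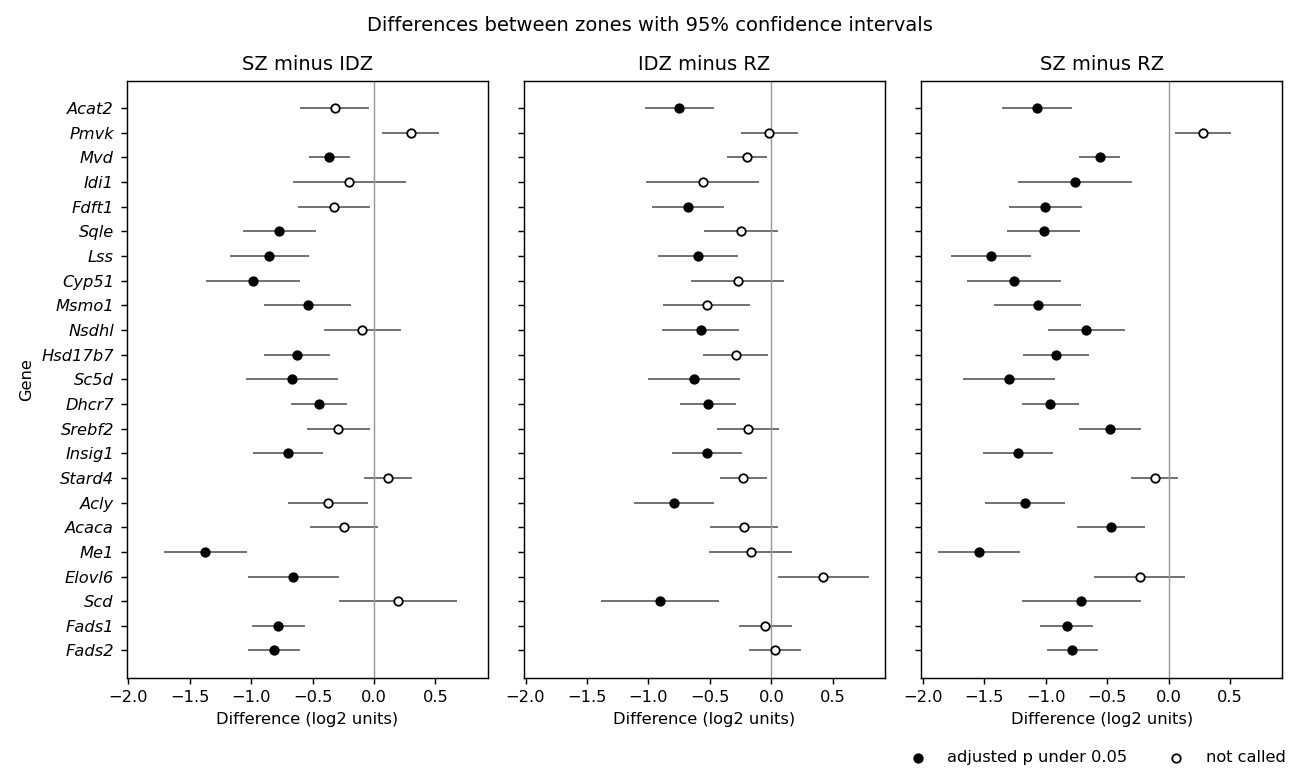
Difference between zone means of the 23 genes (x axis, log2 units, with 95% confidence intervals from limma) in the 3 comparisons, genes in pathway order. Filled points have an adjusted p under 0.05, and all of them lie left of 0: 13 in SZ minus IDZ, 9 in IDZ minus RZ and 20 in SZ minus RZ.

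Because all called differences of these genes had the same direction, the bases upstream of the annotated gene starts were examined. RefSeq promoters on the GRCr8 build, taken as 250 bases before to 50 bases after a gene's start, were at hand for 21 of the 28 genes. SREBPs act with the general factors NF-Y, which binds CCAAT, and Sp1, which binds GC boxes. The letters CCAAT, on either strand, stood in 15 of the 21 promoters, and in 37.49% of all 33469 rat promoters. Those belong to 27457 genes, on the array or not, so the shares of all promoters count promoters where the 21 are genes. The GC box letters GGGCGG, on either strand, stood in 18 of the 21, and in 33.06% of all promoters. A form of the sterol regulatory element, TCACNCCAC on either strand, stood in 0 of the 21 and in 1.12% of all promoters, which says only that these letters were not in this window. The 3 motifs share no letters that would make 1 match count for another. Matches are a description of the sequence and not a measurement of binding. The 200 bases just before the start of 7 genes are printed 5′ to 3′ along the strand of the gene, with CCAAT or its reverse complement ATTGG in capitals. The first 6 were chosen for their lower signal in the superficial zone and their CCAAT letters, and Me1, which had the largest difference of all and no CCAAT in its promoter, for contrast.
Lss (chr20:12118231-12118430, minus strand): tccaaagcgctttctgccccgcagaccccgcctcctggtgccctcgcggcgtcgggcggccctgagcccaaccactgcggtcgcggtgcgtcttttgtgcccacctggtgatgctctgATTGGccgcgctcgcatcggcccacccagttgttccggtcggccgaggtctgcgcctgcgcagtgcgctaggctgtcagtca
Msmo1 (chr16:29746913-29747112, plus strand): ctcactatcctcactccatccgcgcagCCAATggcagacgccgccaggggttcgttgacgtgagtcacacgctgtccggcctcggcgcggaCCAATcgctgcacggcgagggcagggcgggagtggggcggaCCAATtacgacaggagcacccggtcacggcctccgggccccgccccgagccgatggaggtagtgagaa
Nsdhl (chrX:155817160-155817359, plus strand): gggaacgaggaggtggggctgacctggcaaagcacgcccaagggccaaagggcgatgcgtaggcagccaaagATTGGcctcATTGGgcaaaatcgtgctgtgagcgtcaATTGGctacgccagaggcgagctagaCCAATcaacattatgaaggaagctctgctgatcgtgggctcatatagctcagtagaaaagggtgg
Sc5d (chr8:51538278-51538477, minus strand): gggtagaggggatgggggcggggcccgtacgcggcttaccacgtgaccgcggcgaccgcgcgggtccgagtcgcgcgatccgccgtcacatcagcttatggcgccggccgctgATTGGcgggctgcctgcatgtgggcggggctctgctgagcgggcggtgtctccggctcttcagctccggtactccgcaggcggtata
Insig1 (chr4:8057770-8057969, minus strand): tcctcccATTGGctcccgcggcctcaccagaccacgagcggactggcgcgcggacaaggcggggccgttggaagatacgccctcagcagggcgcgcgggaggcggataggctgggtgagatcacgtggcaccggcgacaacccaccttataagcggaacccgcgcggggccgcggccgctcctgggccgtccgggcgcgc
Acly (chr10:85963632-85963831, minus strand): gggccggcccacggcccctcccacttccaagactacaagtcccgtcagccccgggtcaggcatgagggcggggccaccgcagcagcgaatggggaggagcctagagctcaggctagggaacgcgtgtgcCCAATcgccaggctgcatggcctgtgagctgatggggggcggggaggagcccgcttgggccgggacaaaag
Me1 (chr8:96540245-96540444, minus strand): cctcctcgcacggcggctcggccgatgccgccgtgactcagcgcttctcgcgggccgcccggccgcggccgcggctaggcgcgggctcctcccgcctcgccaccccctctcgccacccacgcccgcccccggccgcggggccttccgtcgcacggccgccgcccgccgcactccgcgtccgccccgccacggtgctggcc

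Msmo1 carried the letters at 3 positions and Nsdhl at 4 in these stretches, whereas Lss, Sc5d, Insig1 and Acly carried them at 1 position each. Between SZ and RZ, Nsdhl had the smallest difference of the 7 genes printed. Among the 17 measured genes with a promoter, CCAAT stood in 11, and the 6 without it were Acat2, Cyp51, Dhcr7, Fads2, Me1 and Scd, all of which were also lower in SZ than in RZ. The GC box letters stood in 14 of the 17. Hmgcs1, Mvk, Fdps and Srebf1, which have no value here, are among the 21 genes with a promoter and carry both motifs.

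The early steps, from acetyl-CoA to the isoprenoid units, were measured by 4 genes, and they did not move as a block. Acat2, a cytosolic thiolase that joins acetyl-CoA units, read 8.10, 8.12, 8.25 and 7.60 on SZ arrays 1 to 4, 8.23, 8.30, 8.25 and 8.56 on the IDZ arrays and 9.23, 9.02, 8.96 and 9.12 on the RZ arrays. All RZ arrays were above all others, while SZ and IDZ overlapped. Acat2 was lower by 1.07 ± 0.13 (SE, n = 4 per zone) in SZ than in RZ, with an adjusted p of 1.99e-05 from limma, and by 0.75 ± 0.13 in IDZ than in RZ, with an adjusted p of 0.00243. SZ minus IDZ was -0.32, with a 95% confidence interval of -0.60 to -0.04 and an adjusted p of 0.0995.

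Pmvk, which phosphorylates mevalonate for the second time, ran against the other enzymes. Its zone means were 7.37 ± 0.11 in SZ, 7.07 ± 0.20 in IDZ and 7.09 ± 0.09 in RZ (SD, n = 4), and all SZ arrays were above all RZ arrays. The difference of 0.28 between SZ and RZ missed the threshold, with an adjusted p of 0.0847, as did that of 0.30 between SZ and IDZ, with 0.0613. Without SZ replicate 4 both passed it, at 0.32 with an adjusted p of 0.04 and at 0.33 with 0.0243, and without IDZ replicate 2 the difference from IDZ was 0.38 with an adjusted p of 0.0196.

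Mvd, the decarboxylase that yields isopentenyl pyrophosphate, had zone means of 7.54 ± 0.08, 7.91 ± 0.03 and 8.10 ± 0.03 in SZ, IDZ and RZ (SD, n = 4). Its zones did not overlap on any pair of arrays, and it was lower in SZ than in IDZ by 0.36 ± 0.08 (SE), with an adjusted p of 0.00285 from limma. Idi1, the isomerase of the next step, had the widest spread of the sterol enzymes, from 6.28 to 7.65 on the SZ arrays. It was lower in SZ than in RZ by 0.76 ± 0.22, with an adjusted p of 0.019, a call that was lost without RZ replicate 1 or RZ replicate 4 (adjusted p of 0.0548 to 0.0641). In IDZ against RZ its difference of -0.56 had an adjusted p of 0.158. It was called with the replicate block (adjusted p of 0.0214), with the arrays of these 2 zones only (0.00915) and without SZ replicate 4 (0.021).

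From squalene to lanosterol, all 3 enzymes were lower in SZ than in RZ by at least 2-fold. Fdft1, squalene synthase, joins the isoprenoid chains in the committed step of sterol synthesis. It read 8.87, 9.26, 9.34 and 8.69 on SZ arrays 1 to 4, 9.24, 9.32, 9.39 and 9.51 on IDZ, and 10.26, 10.07, 9.88 and 9.97 on RZ. Only the RZ arrays stood clear of the others. Fdft1 was lower in SZ than in RZ by 1.00 ± 0.14 (SE, n = 4 per zone) with an adjusted p of 6.08e-05, and in IDZ than in RZ by 0.68 ± 0.14 with an adjusted p of 0.00727.

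Sqle, squalene epoxidase, is a rate-limiting step after HMG-CoA reductase. Its SZ arrays read 7.89, 8.43, 8.52 and 7.82, its IDZ arrays 8.85, 8.86, 8.96 and 9.07, and its RZ arrays 9.22, 9.14, 9.16 and 9.20. The SZ arrays stood far below IDZ, and IDZ lay just below RZ without overlap. SZ was lower than IDZ by 0.77 ± 0.14, with an adjusted p of 0.000808, whereas IDZ minus RZ was -0.25, with an interval of -0.55 to 0.05 and an adjusted p of 0.375.

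Lss, lanosterol synthase, closes squalene epoxide to the sterol ring and fell at both steps. On SZ arrays 1 to 4 it read 8.49, 8.79, 8.69 and 7.98, on IDZ 9.27, 9.39, 9.42 and 9.27, and on RZ 10.18, 10.00, 9.83 and 9.72. The 3 zones formed separate bands. Lss was lower in SZ than in RZ by 1.44 ± 0.15 (2.72-fold), with an adjusted p of 3.84e-06, the largest difference among the sterol enzymes. It was lower by 0.85 in SZ than in IDZ, with an adjusted p of 0.000712, and by 0.59 in IDZ than in RZ, with 0.0292. The last of these calls was lost without any 1 of IDZ replicates 1 to 4 or RZ replicates 1 and 2, where the difference was 0.51 to 0.62 and the adjusted p 0.0604 to 0.104.

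**Figure D2:**
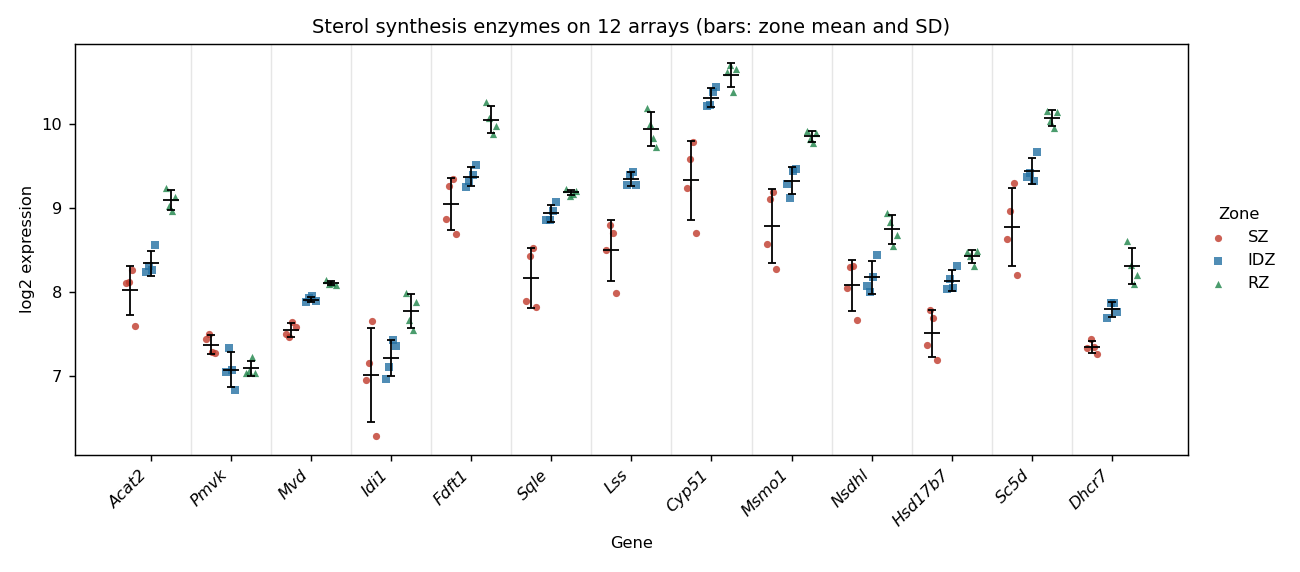
Log2 expression (y axis) of the 13 measured sterol synthesis enzymes on the 12 arrays, points by zone (SZ, IDZ, RZ) in replicate order, with bars for the zone mean and SD. For 12 of the 13, all but Pmvk, the means rise from SZ through IDZ to RZ. Replicate 4 is the lowest SZ point of 12 of the 13, all but Mvd.

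From lanosterol to cholesterol, all 6 enzymes measured were lower in SZ than in RZ, 5 of 6 were lower in SZ than in IDZ and 3 of 6 in IDZ than in RZ. Cyp51, the demethylase that acts first on lanosterol, read 9.23, 9.58, 9.78 and 8.70 in SZ, 10.21, 10.22, 10.37 and 10.43 in IDZ, and 10.61, 10.69, 10.37 and 10.64 in RZ. IDZ and RZ overlapped and SZ lay below both. SZ was lower than IDZ by 0.98 ± 0.18 (SE, n = 4 per zone), with an adjusted p of 0.000764, and than RZ by 1.26 ± 0.18, with 7.63e-05. For IDZ minus RZ the difference was -0.27, with an interval of -0.65 to 0.11.

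Msmo1, a methyl sterol oxidase, read 8.57, 9.10, 9.18 and 8.27 in SZ, 9.28, 9.11, 9.43 and 9.46 in IDZ, and 9.91, 9.82, 9.76 and 9.89 in RZ. All RZ arrays were the highest, and SZ and IDZ overlapped. The difference between SZ and RZ was -1.07 ± 0.17 with an adjusted p of 0.0002. SZ minus IDZ was -0.54 with an adjusted p of 0.0293, a call lost without SZ replicate 1 or IDZ replicates 1, 3 or 4 (adjusted p of 0.0553 to 0.0923). IDZ minus RZ was -0.53 with an adjusted p of 0.0776. It was 0.00465 with the replicate block and 0.0018 with the arrays of these 2 zones only. That difference was also called without SZ replicate 3 or SZ replicate 4, at adjusted p of 0.0471 and 0.00975.

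Nsdhl, a decarboxylating sterol dehydrogenase, lies on the X chromosome. Its zone means were 8.07 ± 0.30 in SZ, 8.17 ± 0.19 in IDZ and 8.74 ± 0.17 in RZ (SD, n = 4), and all RZ arrays were above all others. It was lower by 0.67 in SZ than in RZ, with an adjusted p of 0.00331, and by 0.58 in IDZ than in RZ, with 0.0277. The second call was lost without IDZ replicates 1, 2 or 3 or RZ replicates 1, 2 or 4 (adjusted p of 0.057 to 0.101). SZ minus IDZ was -0.09 with an interval of -0.41 to 0.22, and 0.04 without SZ replicate 4.

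Hsd17b7, a sterol ketoreductase, read 7.36, 7.78, 7.69 and 7.18 in SZ, 8.03, 8.15, 8.04 and 8.30 in IDZ, and 8.47, 8.42, 8.30 and 8.48 in RZ. SZ lay below IDZ on all arrays, and IDZ reached no higher than the lowest RZ array. SZ was lower than IDZ by 0.63 ± 0.12, with an adjusted p of 0.00162, and than RZ by 0.92 ± 0.12, with 5.11e-05. IDZ minus RZ was -0.29, with an adjusted p of 0.213. This p was 0.0358 with the replicate block and 0.0329 with the arrays of these 2 zones only.

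Sc5d, the lathosterol desaturase, and Dhcr7, the reductase that acts after it and yields cholesterol, both had 3 separate zones. Sc5d read 8.63, 8.96, 9.29 and 8.20 in SZ, 9.36, 9.41, 9.32 and 9.66 in IDZ, and 10.15, 10.03, 9.95 and 10.14 in RZ. It was lower in SZ than in RZ by 1.30 ± 0.18, with an adjusted p of 5.02e-05, and in SZ than in IDZ by 0.67 ± 0.18, with 0.0116. Between IDZ and RZ it was lower by 0.63, with an adjusted p of 0.0447. That call was lost without any 1 of SZ replicate 1, IDZ replicates 1 to 3 and RZ replicates 1 to 4 (adjusted p of 0.0586 to 0.13).

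Dhcr7 read 7.33, 7.44, 7.34 and 7.26 in SZ, 7.68, 7.86, 7.86 and 7.76 in IDZ, and 8.60, 8.32, 8.09 and 8.20 in RZ. The SZ arrays lay close together, SZ replicate 4 included. The fall was of like size at both steps, 0.45 ± 0.11 from IDZ to SZ with an adjusted p of 0.00626 and 0.51 ± 0.11 from RZ to IDZ with 0.00835. Over both it was 0.96 ± 0.11, with an adjusted p of 6.63e-06.

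Of the regulators, Insig1 fell as far as the enzymes in SZ and Srebf2 had smaller differences. Srebf2 read 9.44, 9.81, 9.83 and 9.33 on SZ arrays 1 to 4, 9.88, 9.87, 9.89 and 9.93 on IDZ, and 10.27, 10.09, 10.00 and 9.96 on RZ. The zones did not overlap, yet the steps were small beside the spread in SZ. It was lower in SZ than in RZ by 0.48 ± 0.12 (SE, n = 4 per zone), with an adjusted p of 0.00831. SZ minus IDZ was -0.29, with an adjusted p of 0.0966, and IDZ minus RZ was -0.19, with 0.431.

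Insig1 read 8.40, 8.89, 9.01 and 8.38 in SZ, 9.51, 9.28, 9.35 and 9.35 in IDZ, and 9.96, 9.98, 9.79 and 9.86 in RZ, with no overlap between zones. It was lower in SZ than in RZ by 1.22 ± 0.13 (2.34-fold), with an adjusted p of 5.36e-06, and in SZ than in IDZ by 0.70 ± 0.13, with 0.00122. In IDZ against RZ it was lower by 0.53, with an adjusted p of 0.0274, a call lost without IDZ replicates 2, 3 or 4 or RZ replicates 1, 2 or 4 (adjusted p of 0.062 to 0.0909). The other cluster annotated with Insig1 gave -0.81, -0.58 and -1.39 for SZ minus IDZ, IDZ minus RZ and SZ minus RZ, with adjusted p of 0.000312, 0.0155 and 1.27e-06.

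Stard4, which carries cholesterol between membranes, had zone means of 7.23 ± 0.06, 7.11 ± 0.15 and 7.34 ± 0.04 in SZ, IDZ and RZ (SD, n = 4). It was not called in any comparison. SZ minus RZ was -0.11 with an interval of -0.31 to 0.08, although Stard4 is counted among SREBP-2 targets.

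The supply side of fatty acid synthesis was measured by Acly, Acaca and Me1. Acly, ATP citrate lyase, makes the cytosolic acetyl-CoA that both pathways use. It read 9.42, 9.56, 9.41 and 8.71 in SZ, 9.67, 9.70, 9.48 and 9.76 in IDZ, and 10.60, 10.49, 10.32 and 10.36 in RZ. RZ stood above both articular zones, which overlapped. Acly was lower in SZ than in RZ by 1.17 ± 0.15 (SE, n = 4 per zone), with an adjusted p of 3.6e-05, and in IDZ than in RZ by 0.79 ± 0.15, with 0.00485.

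Acaca, acetyl-CoA carboxylase, makes malonyl-CoA, the committed step. Its zone means were 8.10 ± 0.33, 8.34 ± 0.06 and 8.56 ± 0.07 (SD), and only SZ against RZ was called, lower by 0.47 with an adjusted p of 0.0172. Without RZ replicate 1 that difference was 0.43 and its adjusted p 0.0569.

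Me1, cytosolic malic enzyme, supplies NADPH for lipid synthesis. It had the largest differences of all 23 genes, 8.66, 8.57, 8.86 and 7.94 in SZ against 10.00, 9.67, 9.89 and 9.96 in IDZ and 9.88, 10.14, 10.15 and 10.03 in RZ. The SZ arrays lay far below both other zones, which overlapped. SZ was lower than IDZ by 1.37 ± 0.16 (2.59-fold), with an adjusted p of 1.2e-05, and than RZ by 1.54 ± 0.16 (2.91-fold), with 2.8e-06. IDZ minus RZ was -0.17, with an interval of -0.51 to 0.17.

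**Figure D3:**
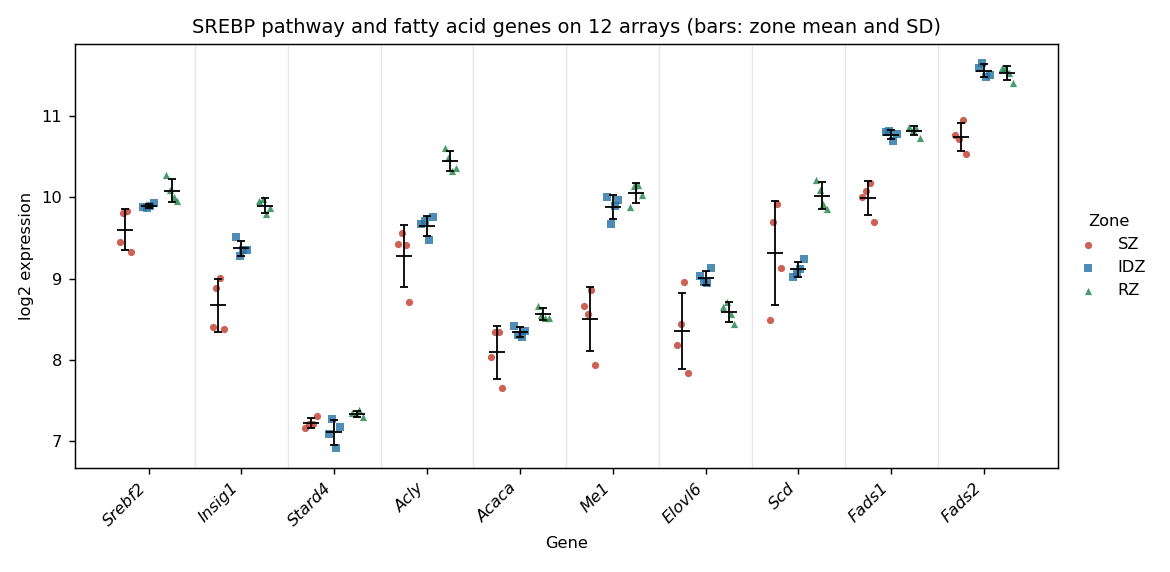
Log2 expression (y axis) of Srebf2, Insig1, Stard4 and the 7 measured fatty acid enzymes on the 12 arrays, points by zone in replicate order, with bars for the zone mean and SD. Me1, Fads1 and Fads2 have all SZ points below all others, Acly has all RZ points above all others, and the zone mean of Scd is lowest in IDZ.

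Among the enzymes that lengthen and desaturate fatty acids, only Fads1 had the order of zone means of most sterol enzymes. Fads2, Scd and Elovl6 each had 1 step reversed, which was not called in the fit of all arrays. Fads1, the delta-5 desaturase of polyunsaturated fatty acid synthesis, read 10.01, 10.08, 10.18 and 9.70 in SZ, 10.80, 10.81, 10.69 and 10.78 in IDZ, and 10.86, 10.83, 10.86 and 10.73 in RZ. SZ lay below both other zones, and IDZ and RZ overlapped. SZ was lower than IDZ by 0.78 ± 0.10 (SE, n = 4 per zone), with an adjusted p of 4.08e-05, and IDZ minus RZ was -0.05, with an interval of -0.27 to 0.17. Fads2, the delta-6 desaturase of the same pathway, lies in the same gene cluster on chromosome 1. Its zone means were 10.74 ± 0.17, 11.55 ± 0.08 and 11.52 ± 0.08 (SD). It was lower in SZ than in IDZ by 0.81 ± 0.10, with an adjusted p of 1.85e-05, and IDZ minus RZ was 0.03, with an interval of -0.18 to 0.24.

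Scd, which makes monounsaturated fatty acids, read 8.49, 9.70, 9.92 and 9.13 in SZ, 9.03, 9.06, 9.12 and 9.24 in IDZ, and 10.21, 10.09, 9.91 and 9.86 in RZ. The SZ arrays overlapped both other zones, with SZ replicate 1 and not replicate 4 the lowest, and IDZ lay wholly below RZ. IDZ was lower than RZ by 0.91 ± 0.23, with an adjusted p of 0.0246, a call lost without IDZ replicates 1, 2 or 3 or RZ replicates 1 or 2 (adjusted p of 0.0654 to 0.0811). SZ was lower than RZ by 0.71, with an adjusted p of 0.0349, a call lost without SZ replicates 1 or 4 or any 1 of the RZ replicates (adjusted p of 0.0513 to 0.103). SZ minus IDZ was 0.20, with an interval of -0.28 to 0.68, and -0.0055 without SZ replicate 3. Scd2 is a close paralog, and whether probes of either also detect the other is not known here.

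Elovl6, which lengthens saturated and monounsaturated fatty acids, was the 1 gene highest on all IDZ arrays against RZ. Its zone means were 8.36 ± 0.47 in SZ, 9.01 ± 0.09 in IDZ and 8.59 ± 0.12 in RZ (SD, n = 4). It was lower in SZ than in IDZ by 0.66 ± 0.17 (SE), with an adjusted p of 0.0119. IDZ minus RZ was 0.42, with an adjusted p of 0.19. This p was 0.0144 with the replicate block and 0.00436 with the arrays of these 2 zones only. The same difference was called without SZ replicate 3 or SZ replicate 4, at adjusted p of 0.0499 and 0.0432. SZ minus RZ was -0.23 with an adjusted p of 0.439, and without SZ replicate 3 it was -0.43 with 0.0281.

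Across the 23 genes, zone means followed the order SZ, IDZ, RZ from low to high for 18, and for 20.6% of all genes. Among the sterol enzymes 12 of 13 had this order. The exceptions were Pmvk, Stard4, Scd, Elovl6 and Fads2. Within this order, the step that was called differed by gene. Mvd, Sqle, Cyp51, Msmo1, Hsd17b7, Me1 and Fads1 were called between SZ and IDZ and not between IDZ and RZ. Acat2, Fdft1, Nsdhl and Acly were called between IDZ and RZ and not between SZ and IDZ. Lss, Sc5d, Dhcr7 and Insig1 were called at both, and Idi1, Srebf2 and Acaca at neither. These classes moved with the scaling. In SZ minus IDZ, Acat2, Fdft1 and Acly were also called with repeated quantile normalization (adjusted p of 0.0071, 0.00996 and 0.00504) and with cyclic loess (0.0154, 0.0367 and 0.0308), and Srebf2 and Acaca with repeated quantile normalization (0.0077 and 0.0164). Without SZ replicate 3, Fdft1 and Srebf2 were called in SZ minus IDZ (0.0396 and 0.0431), and without SZ replicate 2 Acly was (0.0479). Whether the steps of a gene differ from each other was not tested.

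The spread of these genes within a zone was widest in SZ, with a median SD of 0.326 against 0.111 in IDZ and 0.118 in RZ. Over all genes the median SDs were 0.232, 0.113 and 0.113. Without SZ replicate 4 the median SD of the 23 genes in SZ was 0.175. SZ replicate 3 was the highest SZ array for 17 of the 23 genes and for 23.7% of all genes, RZ replicate 1 was the highest RZ array for 16, against 27.3%, and IDZ replicate 4 was the highest IDZ array for 12, against 33.2%. The SZ samples were single animals and the others pooled pairs.

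**Figure D4:**
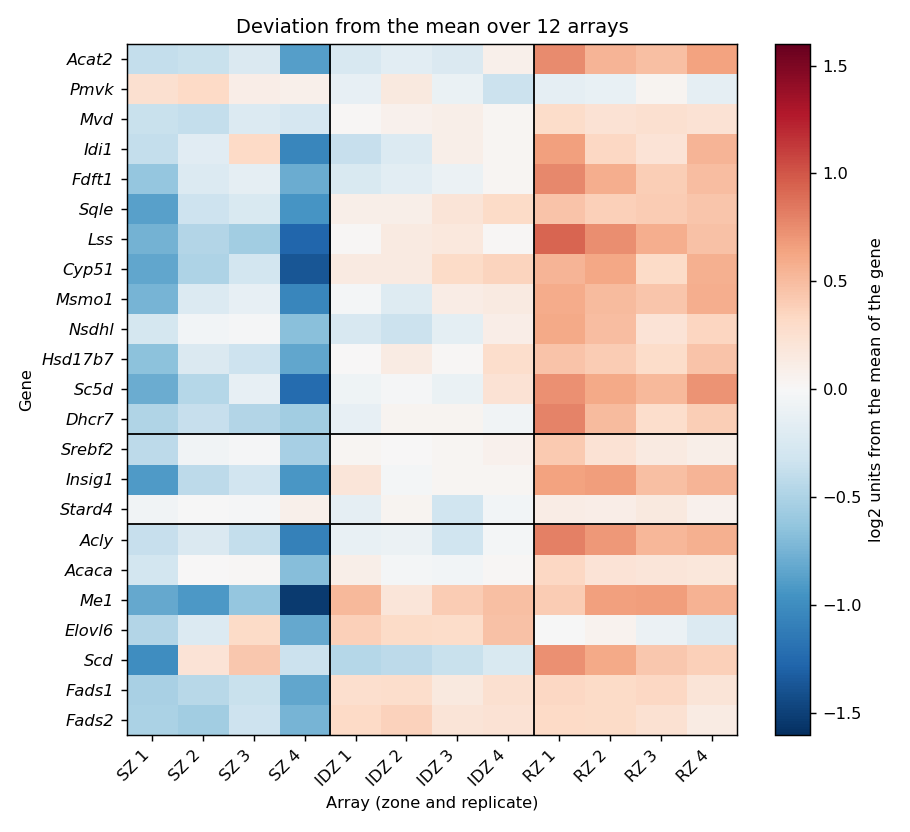
Deviation of each of the 23 genes (rows, in pathway order) from its own mean over the 12 arrays (columns, by zone and replicate), in log2 units on the color scale. Deviations run from -1.54 to 0.93. SZ columns are mostly blue and RZ columns mostly red, SZ replicate 4 is the bluest column, and Pmvk, Stard4, Scd and Elovl6 break the pattern.

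Other genes of lipid metabolism were followed to see how far the difference extended. Of 12 further sterol and isoprenoid genes 6 were measured, and 1 was higher and 1 lower in SZ than in each of the other zones. Over all genes, 17.0% were higher and 9.56% lower in SZ than in IDZ, and 14.5% and 12.2% in SZ than in RZ. Tmem97, a sterol-regulated membrane protein, moved as the enzymes did, lower in SZ than in RZ by 0.79 ± 0.11 (SE, n = 4 per zone), with an adjusted p of 7.68e-05. Ebp, the sterol isomerase that acts before Sc5d, ran the other way. It read 8.03, 8.01, 8.27 and 7.81 in SZ, 7.10, 7.54, 7.47 and 7.48 in IDZ, and 7.44, 7.48, 7.33 and 7.26 in RZ, so that all SZ arrays lay above all others. It was higher in SZ than in RZ by 0.65 ± 0.12, with an adjusted p of 0.000742.

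Genes that process SREBP or sense sterols, of which 7 of 9 were measured, showed no common direction. Scap, the SREBP escort protein, was higher in SZ than in IDZ by 0.35 (adjusted p of 0.00756) and than in RZ by 0.37 (adjusted p of 0.00518). Erlin2, which helps degrade HMG-CoA reductase, was lower in SZ than in IDZ by 0.62 (adjusted p of 0.00865).

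Of 11 measured genes of a list of 17 further fatty acid synthesis genes, 1 was higher and 3 were lower in SZ than in RZ. Over all genes, 14.5% were higher and 12.2% lower. Scd2 was lower, with zone means of 10.99 in SZ and 12.19 in RZ and an adjusted p of 4.93e-07. Slc25a1, the carrier that exports citrate from mitochondria for Acly, was lower by 0.76 ± 0.08 (SE), with an adjusted p of 3.03e-06. Elovl5, which lengthens the products of Fads2, was higher in SZ than in IDZ by 1.06 ± 0.11, with an adjusted p of 5.27e-06, and than in RZ by 0.71, with 0.000219. Among 7 glycerolipid and lipid droplet genes, Lpin1, a phosphatidate phosphatase, and Plin3, a droplet coat protein, were lower in SZ than in RZ by 0.87 (adjusted p of 3.93e-05) and 0.71 (adjusted p of 0.00666). Plin2, another droplet coat protein, was lowest in IDZ, by 0.70 against RZ (adjusted p of 0.00101) and by 0.51 against SZ (adjusted p of 0.00325).

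Some genes of cholesterol export and the LXR pathway were higher in SZ. LXR receptors are activated by oxysterols and switch on efflux when cells hold much cholesterol. Of 14 such genes, 7 had higher levels in SZ than in IDZ and 8 in SZ than in RZ, where 17.0% and 14.5% of all genes did. The median differences were 0.32 and 0.41, with 3 and 1 of the 14 negative, and the remaining 7 and 6 genes were not called. Abca1, a cholesterol efflux pump, read 8.56, 8.78, 8.44 and 7.99 in SZ, 6.93, 7.15, 7.02 and 6.96 in IDZ, and 7.41, 7.36, 7.20 and 7.21 in RZ. All SZ arrays were above all others, SZ replicate 4 being the lowest of them. Abca1 was higher in SZ than in RZ by 1.15 ± 0.14, with an adjusted p of 1.32e-05. Its partner Abcg1 was higher by 1.19 (adjusted p of 4.05e-06), and Lipa, the lysosomal lipase that frees cholesterol from its esters, by 1.12 (adjusted p of 1.2e-05). These genes are also expressed by macrophages, whose markers were higher on the same arrays. Apoe was the 1 gene of the list called between IDZ and RZ, higher in IDZ by 1.36 ± 0.15, with an adjusted p of 3.95e-05.

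Lipid uptake genes split. Lpl, the lipase that frees fatty acids from lipoproteins, was higher in SZ than in IDZ by 2.57 ± 0.24, with an adjusted p of 1.87e-06, and Cd36, a fatty acid transporter of adipocytes, macrophages and endothelium, by 1.62 ± 0.24, with 0.00014. Vldlr, a lipoprotein receptor, was lower by 1.29 ± 0.19, with an adjusted p of 0.000146. In SZ against IDZ, 8 of 17 measured fatty acid oxidation genes (of a list of 18) were higher and 1 was lower, with a median difference of 0.37, where 17.0% of all genes were higher. Against RZ, 3 of 17 were higher, a share near the 14.5% of all genes, and 1 was lower, with a median of 0.02. Cpt1a, which admits fatty acids to mitochondria, was higher in SZ than in IDZ by 1.98 ± 0.17 (3.94-fold), with an adjusted p of 5.94e-07, and Acadm, an acyl-CoA dehydrogenase, by 0.84, with 0.000111. In IDZ against RZ, Slc25a20, Hadha and Hadh were lower, with adjusted p of 0.0259, 0.0279 and 0.0258, and all 3 calls were lost without IDZ replicate 1, 2 or 3 or RZ replicate 4 (adjusted p over all arrays whose removal lost a call, 0.0517 to 0.0994).

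**Figure D5:**
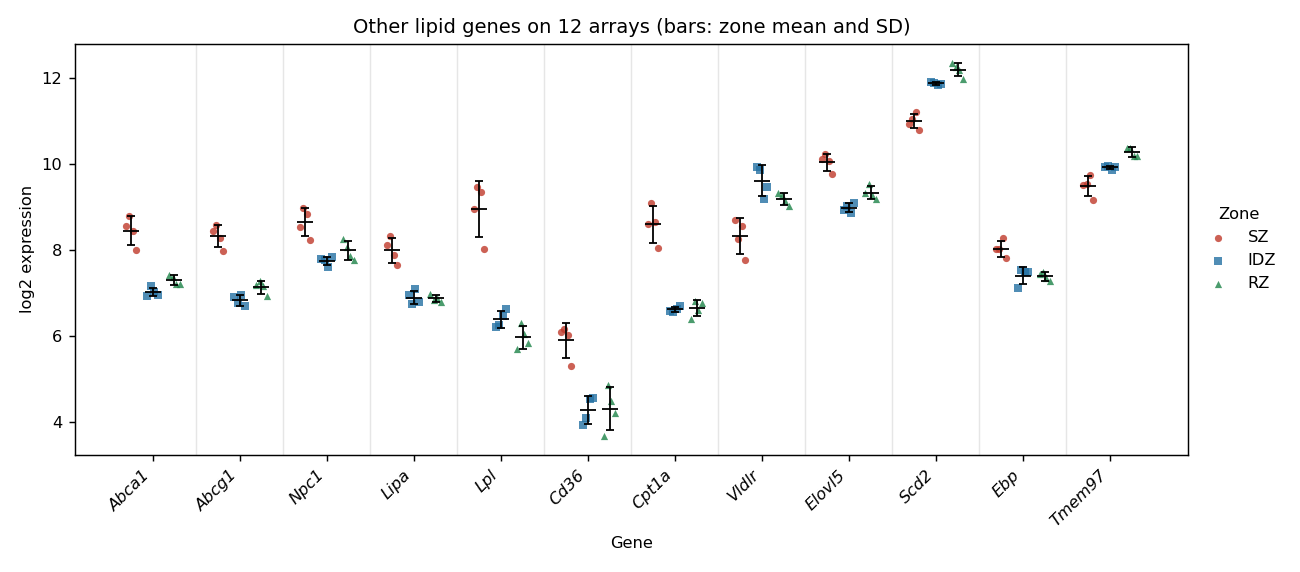
Log2 expression (y axis) of 12 other genes of lipid metabolism on the 12 arrays, points by zone in replicate order, with bars for the zone mean and SD. Abca1, Abcg1, Lipa, Lpl, Cd36, Cpt1a, Elovl5 and Ebp have all SZ points above all others, whereas Vldlr, Scd2 and Tmem97 have all SZ points below.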

How the data were processed

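Per the labels and the study's methods, RNA of hand-dissected zones was hybridised to Affymetrix Rat Gene 1.0 ST arrays, 1 array per sample, and the authors made log2 values by robust multi-array average (RMA) in Partek Genomics Suite 6.6. The deposited log2 values were used with no further normalization. Each gene was read from its brightest cluster with 1 symbol. A linear model of the 12 arrays with a mean for each zone was fitted in R 4.3.3 with limma 3.58.1, with moderated variances and Benjamini-Hochberg adjustment over all 27342 clusters, at 0.05, and code was tested on simulated data. The number of arrays, 4 per zone, limits the precision. Shares of all genes are over 14300 genes. Genes and lists were chosen with earlier results of these data known. Values on all arrays were given for Srebf2, Insig1 and the 14 genes with the largest called differences, and for other lists up to 4 genes per comparison. Alternatives were other variances, scalings, minimum differences and blocks, and leaving out each array.

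IDZ and RZ samples of 1 number share their animals, and their deviations from zone means correlated at 0.018, 0.022, 0.027 and 0.205. The correlation within pairs of animals in the random block fit was -0.141.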

Additional observations from a re-analysis of the deposited data

Results flagged for a closer look

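In 5 of 159 groups of 4 arrays, 1 array lay far from the other 3, where chance gives about 1 group in 20. Pmvk read 7.22 on RZ replicate 3, against 7.03 to 7.06 on the other RZ arrays. Ebp read 7.10 on IDZ replicate 1, against 7.47 to 7.54 on the other IDZ arrays. On SZ replicate 4, Cd36 read 5.30, against 6.02 to 6.16, and Acadm read 7.43, against 7.73 to 7.79 on the other SZ arrays. Hadha, a subunit of the mitochondrial trifunctional protein, read 9.06 on IDZ replicate 3, against 9.15 to 9.16 on the other IDZ arrays.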

How the results depend on the processing

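Of the 20 genes called lower in SZ than in RZ, 15 were called under every alternative that kept the adjusted p of 0.05 without a 2-fold minimum. This held for 7 of 13 in SZ against IDZ and 0 of 9 in IDZ against RZ, where testing against 1.2-fold (treat) called 0. A minimum of 2-fold left 10 lower genes in SZ against RZ, 1 in SZ against IDZ and 0 in IDZ against RZ. Treat called 7 lower in SZ against IDZ, and plain one-way contrasts called 5 lower in IDZ against RZ. Cyclic loess called 1 gene (Pmvk) higher in SZ than in each other zone. Elovl6 was the 1 gene higher in IDZ than in RZ with arrays of these 2 zones only, repeated quantile normalization, cyclic loess or the replicate block. The block, fitted on the arrays of these 2 zones only, gave 12 lower genes. It changed no calls of the 23 genes but those of Idi1, Msmo1, Hsd17b7 and Elovl6. As a random block on all arrays it gave 7, without Lss and Sc5d. Leaving out 1 array gave 12 to 15 lower genes in SZ against IDZ, 4 to 11 in IDZ against RZ and 17 to 21 in SZ against RZ, and 0 to 1 higher in each. Uncalled differences changed sign in 10 cases. Pmvk, IDZ minus RZ, was 0.0628 without IDZ replicate 4 and 0.0286 without RZ replicate 3, and ran from -0.1037 to 0.0628 over all arrays left out in turn. SZ minus IDZ ran from -0.4148 to 0.0398 for Idi1 and from -0.1726 to 0.0443 for Nsdhl, positive for each only without SZ replicate 4. For Scd it ran from -0.0055, without SZ replicate 3, to 0.4708. Fads1, IDZ minus RZ, was 0.014 with repeated quantile normalization and 0.0145 with cyclic loess. Fads2, IDZ minus RZ, was -0.0091 with median centring, -0.0008 without IDZ replicate 2 and -0.0095 without RZ replicate 4, up to 0.0559 with other arrays left out. The cause of these changes was not tested. Under the scalings, the median change of a zone difference over all clusters was at most 0.058 in size. Single genes moved further, such as Acat2 in SZ minus IDZ, from -0.32 to -0.41 with repeated quantile normalization. Signal over background was not given in the sources used here, so dim genes have no stated limit.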
